A study of Aphis gossypii with 6 samples.

Results

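Mitochondrial ribosomal proteins were compared between a pyrethroid-resistant and a sensitive strain of Aphis gossypii, the cotton aphid. The genes were chosen by product description: a gene was taken when its text named a protein of the large (39S) or small (28S) mitochondrial subunit, or a ribosomal protein placed in mitochondria. The rule found 77 of the 14013 listed genes, 48 for the large and 29 for the small subunit, and they carry 70 different protein names. RNA came from pooled whole bodies of aphids resistant to the pyrethroid beta-cypermethrin, a population found in the field (RGL), and of sensitive aphids with the genotype label WT (SGL). Each strain had 3 libraries, and neither was exposed to the insecticide. Each condition is a single strain, so a difference cannot be tied to resistance apart from anything else in which the strains differ. Whether the 3 libraries of a strain stem from separate rearings is not stated; p-values therefore reflect the spread of these samples, which may be technical.

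Mitochondria translate the few proteins encoded by their own genome, all of them parts of the oxidative phosphorylation machinery in animals, on ribosomes of their own. The ribosomal proteins are made in the cytosol from nuclear genes and imported. Some descend from the bacterial ancestor of the organelle and keep the names of their bacterial counterparts, while others are found in mitochondria alone. The large subunit joins amino acids at the peptidyl transferase centre and passes the new chain through an exit tunnel; the small subunit holds the messenger RNA and decodes it.

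The names were compared with other annotation in the table. A KEGG entry naming a ribosomal protein was present for 76 of the 77 genes, the Gene Ontology term for a structural constituent of the ribosome for 72 and the term for the mitochondrion for 59. All 77 passed the filter on low counts, with between 81 and 5334 reads per gene and library and a median of 1250. The libraries held 31290134 to 46681719 counts in all, and the 77 genes took 0.282% to 0.333% of them in the resistant and 0.304% to 0.314% in the susceptible libraries. These raw shares overlap. Results below are on the scale of CPM, counts divided by library size on one common scale, after TMM scaling, which corrects library totals for the few very abundant genes that take different shares of each library. On that scale the genes summed to 3289, 3188 and 3308 CPM in resistant replicates 1 to 3 and to 2907, 2996 and 2878 CPM in susceptible replicates 1 to 3, so the resistant sums lay above the susceptible ones.

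Against the susceptible strain, 25 of the 77 genes were higher and 1 was lower in the resistant aphids, at an adjusted p under 0.05 (Benjamini-Hochberg over 11149 tested genes) in edgeR's quasi-likelihood test. That is 32.5% higher and 1.30% lower, beside 21.4% higher and 14.4% lower among all tested genes. At an unadjusted p under 0.05 in that test, 29 were higher and 2 lower. All genes were not counted at that threshold, so these 2 counts have no share to be read against. The changes were small. The 25 risers spanned 1.21-fold to 1.75-fold with a median of 1.40-fold, and none of the 77 reached 2-fold. Among all tested genes 8.31% were called and at least 2-fold higher, and 1.96% were 2-fold or more lower. The median log2 fold change (resistant over susceptible) was 0.18 for the 77 genes and -0.0037 for all tested genes, and 55 of the 77 values were above 0. In 32 genes every resistant library lay above every susceptible one (41.6%, beside 28.2% of all tested genes), and in 6 every resistant library lay below (7.79%, beside 25.8%).

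**Figure D1:**
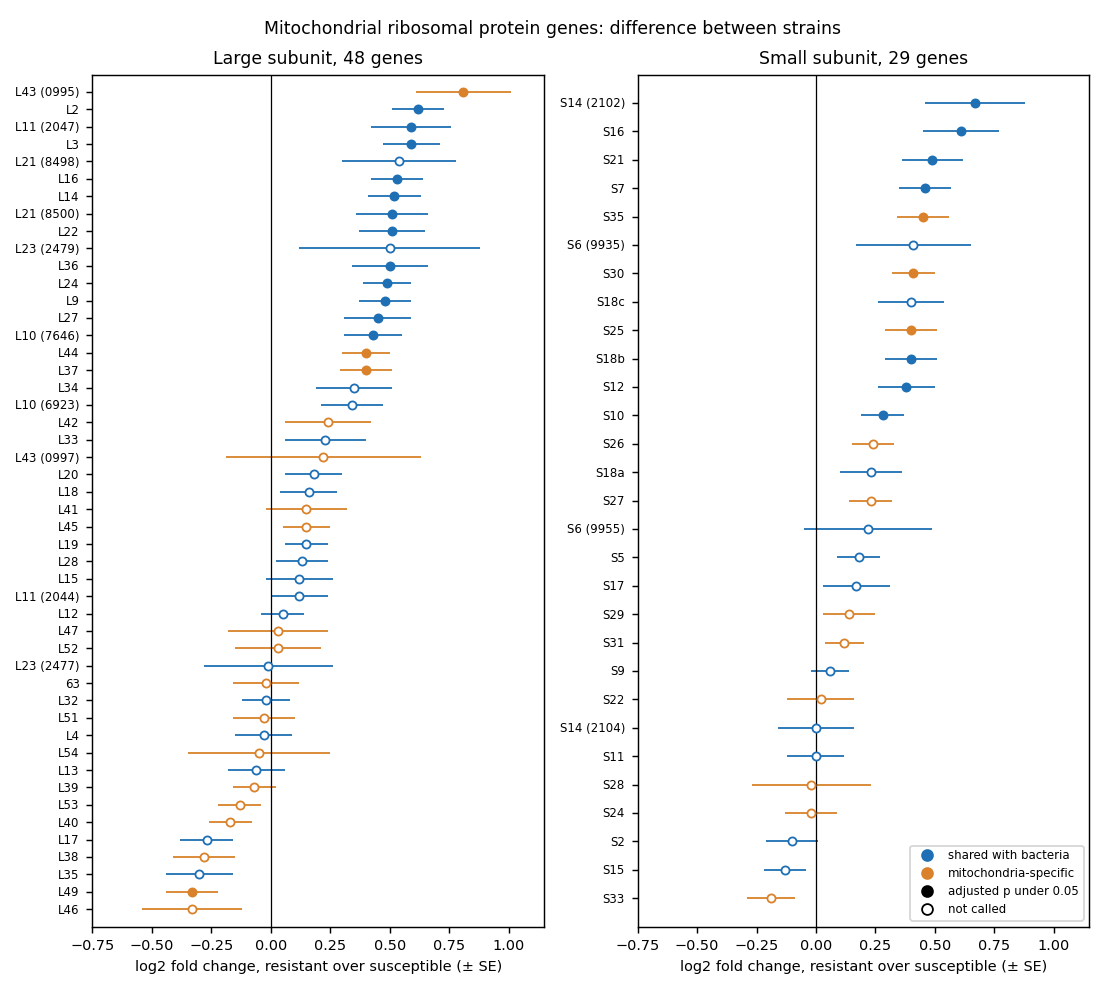
Log2 fold change (resistant over susceptible) with its SE for each of the 48 large-subunit and 29 small-subunit genes. Filled points passed an adjusted p of 0.05 in edgeR's test. By the number in the name alone, blue marks proteins counted as shared with bacteria and orange those counted as specific to mitochondria. Where 2 genes share a name, 4 digits in brackets end the gene identifier. Filled points to the right of 0 number 15 and 10, and L49 is the filled point to the left.

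The number of risers depended on which libraries and which scaling were used. Scaling to library totals without TMM shifted the log2 median over all tested genes by -0.15. The median of the 77 genes was then 0.04, with 7 members higher (9.09%, beside 15.8% of all genes) and 3 lower (beside 20.8%). The member median lay 0.19 above that of all genes under either scaling. Leaving out resistant replicate 1 gave 37 risers, 48.05% of members beside 28.6% of all genes, and 2 lower members, 2.60% beside 24.9%. Omitting resistant replicate 2 gave 15 risers, 19.5% of members beside 17.1% of all genes, and 1 lower, 1.30% beside 10.4%. Omitting resistant replicate 3 gave 18 risers, 23.4% beside 21.8%, and 2 lower, 2.60% beside 15.2%. Dropping susceptible replicate 1 left 7 risers, 9.09% of members beside 14.8% of all genes. Dropping susceptible replicate 2 left 12, 15.6% beside 14.9%, and dropping susceptible replicate 3 left 5, 6.49% beside 14.1%. These last 3 fits called no member lower, where they called 7.22%, 6.96% and 6.97% of all genes lower. An excess of risers over all genes was therefore absent with library totals alone and without susceptible replicates 1 or 3. It was small without resistant replicates 2 or 3 and without susceptible replicate 2. With the replicate number fitted as a block it was small too, at 20.8% of members beside 18.9% of all genes. Lower members stayed at 0 to 3. DESeq2's Wald test called 28 members higher and 1 lower, beside 23% and 18.6% of all genes.

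**Figure D2:**
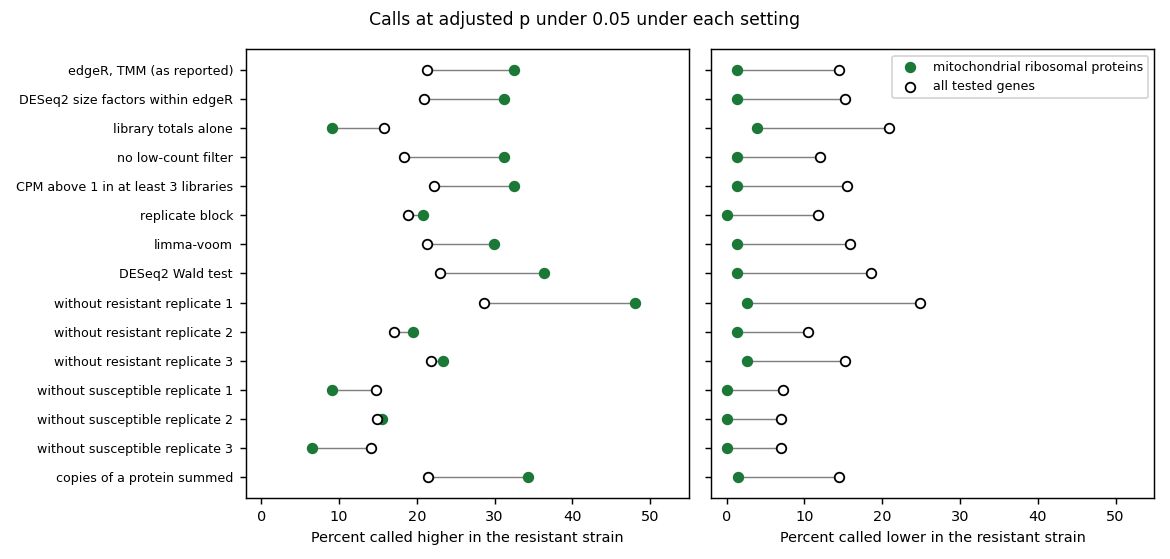
Percent of the mitochondrial ribosomal protein genes (green) and of all tested genes (open) called higher (left) or lower (right) in the resistant strain, for the reported fit and each alternative. On the left the green points fall below the open ones with library totals alone and without susceptible replicates 1 and 3; on the right they lie below in every fit shown.

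Several large-subunit proteins that rose lie at or near the peptidyl transferase centre. Only risers are described in this paragraph. Whether proteins near the centre rose more often than others of the large subunit was not tested. L2 and L3 are conserved proteins whose extensions reach towards that centre, and L16 lies beside it near the incoming tRNA. L2 (LOC114123201) had 79.6, 63.3 and 66.8 CPM in resistant replicates 1 to 3 and 44.4, 47.0 and 45.2 CPM in susceptible replicates 1 to 3. All resistant libraries were above all susceptible ones, a rise of 0.62 ± 0.11 on the log2 scale (SE, edgeR adjusted p = 0.00309). L3 (LOC114121187) had 142, 113 and 108 CPM in the resistant and 77.7, 84.2 and 78.7 CPM in the susceptible libraries. Its strains did not overlap, with resistant replicate 1 the highest, and it rose by 0.59 ± 0.12 (edgeR adjusted p = 0.00543). L16 (LOC114131623) had 43.8, 38.7 and 42.2 CPM against 28.8, 31.0 and 26.7 CPM, again without overlap, and rose by 0.53 ± 0.11 (edgeR adjusted p = 0.00566). L27 (LOC114122587), which in bacteria extends into the centre itself, rose by 0.45 ± 0.14 (edgeR adjusted p = 0.0419), a call kept only without resistant replicates 1 or 2. L14 (LOC114128230), at the face that meets the small subunit, had 40.7, 36.3 and 33.4 CPM in the resistant and 25.4, 27.2 and 24.2 CPM in the susceptible libraries, and rose by 0.52 ± 0.11.

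Proteins of the exit tunnel included risers and genes that did not pass. L24 (LOC114126056), near the tunnel's mouth, had 82.5, 73.9 and 75.7 CPM in the resistant libraries and 53.9, 61.2 and 49.6 CPM in the susceptible ones. The strains did not overlap and L24 rose by 0.49 ± 0.10 (edgeR adjusted p = 0.00750). L22 (LOC114122322), which lines the tunnel, had 72.0, 54.5 and 52.7 CPM against 43.3, 43.9 and 38.4 CPM and rose by 0.51 ± 0.14 (edgeR adjusted p = 0.0203), with resistant replicate 1 well above the other resistant libraries. L4 (LOC114123907), which lines the tunnel beside L22, was at 53.1, 41.6 and 42.0 CPM in the resistant and 47.5, 46.4 and 45.1 CPM in the susceptible libraries. Its strains overlapped and it did not pass the test (-0.03 ± 0.12, edgeR adjusted p = 0.882). L45 (LOC114119782), which carries a domain like that of the import protein Tim44 in its Pfam annotation, had a log2 fold change of 0.15 ± 0.10 and did not pass either. L17 (LOC114123916) and L23, which in bacteria lie around the tunnel's mouth, did not pass. L17 had 50.9, 43.8 and 39.3 CPM against 53.8, 55.7 and 51.9 CPM (-0.27 ± 0.11, edgeR adjusted p = 0.0970), and the L23 genes had log2 fold changes of 0.50 ± 0.38 and -0.01 ± 0.27. No difference between these genes was tested.

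Of the 25 risers, L2, L3, L16, L24 and S30 kept their call when any single library was left out, and all of these but S30 also kept it with library totals alone. With library totals alone L2 was 0.46 higher on the log2 scale, L3 0.43, L16 0.38 and L24 0.34. Among the fits that left out a library, L14 lost its call only without susceptible replicate 3, and L43 (LOC114130995), the gene with the greatest rise, only without susceptible replicates 1 or 3. L22 lost its call without each susceptible replicate in turn. L9 (LOC114123206), which rose by 0.48 ± 0.11, and the called genes of L10, L11, S7, S10 and S18b each lost their call at least without susceptible replicate 1 and without susceptible replicate 3. L36 (Aphis_gossypii_newGene_1367), a short zinc-binding protein of the large subunit, had 18, 18.5 and 25.1 CPM against 14.6, 15.8 and 13.3 CPM and rose by 0.50 ± 0.16 (edgeR adjusted p = 0.0432), a call kept only without resistant replicate 1 among those fits.

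The stalk, the arm of the large subunit that recruits elongation factors, gave mixed results. L12 (LOC114131798), which in bacteria sits on the stalk in several copies and drives the factors' GTP hydrolysis, had 59.8, 69.4 and 70.1 CPM in the resistant and 62.9, 63.5 and 66.0 CPM in the susceptible libraries. These values overlap and the difference did not pass the test (0.05 ± 0.09, edgeR adjusted p = 0.702). L10 anchors L12 and L11 forms the stalk base; each is named by 2 genes. The L10 gene LOC114127646 had 14.8, 15.02 and 15.6 CPM against 11.8, 11.3 and 10.8 CPM and rose by 0.43 ± 0.12 (edgeR adjusted p = 0.0273), while the L10 gene LOC114126923 had a log2 fold change of 0.34 ± 0.13 and did not pass (edgeR adjusted p = 0.0701). The L11 gene LOC114122047, called partial in its description, had 27.0, 18.2 and 19.3 CPM against 13.1, 14.7 and 14.8 CPM and rose by 0.59 ± 0.17 (edgeR adjusted p = 0.0274), and the other L11 gene, LOC114122044, lay at 0.12 ± 0.12 (edgeR adjusted p = 0.437).

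In the small subunit 10 of 29 genes rose (34.5%) and 0 fell in edgeR's test, with 22 values above 0. Of all tested genes that test called 21.4% higher and 14.4% lower. At its unadjusted p under 0.05 the counts were 13 and 0, a threshold at which all genes were not counted. DESeq2 called 12 and 0, beside 23% and 18.6% of all genes, and limma-voom 9 and 0, beside 21.3% and 15.8%. No small-subunit gene was called with library totals alone, where 15.8% of all genes were higher and 20.8% lower. These counts follow the letter in the product text. Current naming puts S30 and S18a in the large subunit. Counted that way 9 of 27 small-subunit (33.3%) and 16 of 50 large-subunit genes (32%) rose. S12 (LOC114123203) is the decoding-centre protein whose Drosophila counterpart is the technical knockout gene, named for bang-sensitive paralysis. S12 had 25.1, 26.2 and 23.3 CPM in the resistant and 20.2, 19.8 and 17.2 CPM in the susceptible libraries, without overlap, and rose by 0.38 ± 0.12 (edgeR adjusted p = 0.0365), a call lost when resistant replicate 2 or any one susceptible replicate was left out. S12 and L2 are immediate neighbours among the genes of RefSeq. The strand setting of the counting is not known here, so reads at their ends cannot be assigned with certainty. S16 (LOC114123161), which takes part in subunit assembly in bacteria, had 26.4, 31.2 and 32.0 CPM against 22.5, 15.7 and 20.6 CPM and rose by 0.61 ± 0.16 (edgeR adjusted p = 0.0178), a call lost without resistant replicate 2 and without susceptible replicates 2 or 3. S21 (LOC114128246) had 48.7, 40.04 and 39.1 CPM against 29.1, 34.2 and 27.8 CPM and rose by 0.49 ± 0.13 (edgeR adjusted p = 0.02). S21 and S35 lost their call without susceptible replicates 1 or 3.

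S35 (LOC114125847), a protein found in mitochondria alone, had 67.4, 60.5 and 61.0 CPM in the resistant and 42.6, 52.7 and 43.3 CPM in the susceptible libraries. Its strains did not overlap and it rose by 0.45 ± 0.11 (edgeR adjusted p = 0.0156). S30 (LOC114125069) had 90.7, 89.2 and 101 CPM against 69.1, 70.1 and 71.9 CPM and rose by 0.41 ± 0.09 (edgeR adjusted p = 0.00686). S29 (LOC114124744), the GTP-binding protein known in mammals as death-associated protein 3, had 54.6, 53.0 and 63.9 CPM against 48.3, 54.7 and 53.1 CPM, which overlap (0.14 ± 0.11, edgeR adjusted p = 0.346). S22 (LOC114119763), also confined to mitochondria, was at 41.2, 50.3 and 60.5 CPM against 51.0, 46.8 and 52.4 CPM and did not differ beyond the spread of the libraries (0.02 ± 0.14, edgeR adjusted p = 0.930). The small-subunit risers not described above were S7, S18b, S25 and S10, with log2 fold changes from 0.28 to 0.46.

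The one gene that fell was L49 (LOC114129257), a large-subunit protein whose Pfam family is named after the yeast Img2 gene. It had 111, 85.6 and 89.5 CPM in the resistant and 122.5, 121.5 and 115.9 CPM in the susceptible libraries. The strains did not overlap, and L49 fell by 0.33 on the log2 scale (SE 0.11, edgeR adjusted p = 0.0467); the call was kept only without resistant replicate 1 among the fits that left out a library. L46 (LOC114119974) had a log2 fold change of the same size, -0.33 ± 0.21, but its libraries overlapped and it did not pass (edgeR adjusted p = 0.256). L38 (LOC114124579), which carries a phosphatidylethanolamine-binding domain by its Pfam entry, lay at 88.0, 116 and 124 CPM in the resistant and 136, 129 and 133 CPM in the susceptible libraries, and L17, L40, L53 and S33 likewise had every resistant library below every susceptible one without passing the test.

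Proteins were split by the number in their name into a bacterial type and a type called mitochondria-specific here. L1 to L36 and S1 to S21 were counted as bacterial type, and higher numbers and protein 63 as mitochondria-specific. The number is only a rough guide, since a protein with a higher number can still have a bacterial counterpart. Single proteins were not checked for one. The split was made after the values were seen and is not tested. Of 48 genes of bacterial type 19 rose and 0 fell in edgeR's test, with a median log2 fold change of 0.31. At an unadjusted p under 0.05 in that test 21 were higher and 1 lower, a threshold at which all genes were not counted. DESeq2 called 21 higher, beside 23% of all genes, and limma-voom 17, beside 21.3%. Both called 0 lower, beside 18.6% and 15.8% of all genes. Of 29 mitochondria-specific genes 6 rose and 1 fell, with a median of 0.03, and 12 of their values were below 0. Within the large subunit the counts were 12 of 30 genes of bacterial type and 3 of 18 mitochondria-specific ones, and within the small subunit 7 of 18 and 3 of 11 by the letter in the text. The share of risers was 39.6% and 20.7% in that order, beside 21.4% of all tested genes. Without resistant replicate 1 the risers were 26 and 11, or 54.2% and 37.9% beside 28.6% of all genes. With library totals alone they were 6 and 1, or 12.5% and 3.45% beside 15.8%. Without susceptible replicate 1 they were also 6 and 1, beside 14.8%, and without susceptible replicate 3 they were 4 and 1, or 8.33% and 3.45% beside 14.1%. In these last 3 fits the share for genes of bacterial type was below that of all genes. With library totals alone the medians were 0.16 and -0.10.

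The 6 mitochondria-specific risers were L43, L44, L37, S25, S30 and S35. L44 (LOC114126011), a protein of the ribonuclease III fold in which human mutations cause cardiomyopathy, had 36.9, 38.2 and 42.7 CPM in the resistant and 31.7, 28.5 and 29.4 CPM in the susceptible libraries. It rose by 0.40 ± 0.10 (edgeR adjusted p = 0.0195), a call lost when resistant replicate 2 or any one susceptible replicate was left out. These 6 hold pairs with a shared Pfam family: L43 and S25 carry the domain shared with a complex I subunit, and L37 and S30 the family named after programmed cell death protein 9. L37 (LOC114119156) rose by 0.40 ± 0.11 and S25 (LOC114124973) by 0.40 ± 0.11, and both lost their call without each susceptible replicate in turn. The S18 family has 3 members, of which S18b rose by 0.40 ± 0.11, while S18c (0.40 ± 0.14, edgeR adjusted p = 0.0572) and S18a (0.23 ± 0.13) did not pass.

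**Figure D3:**
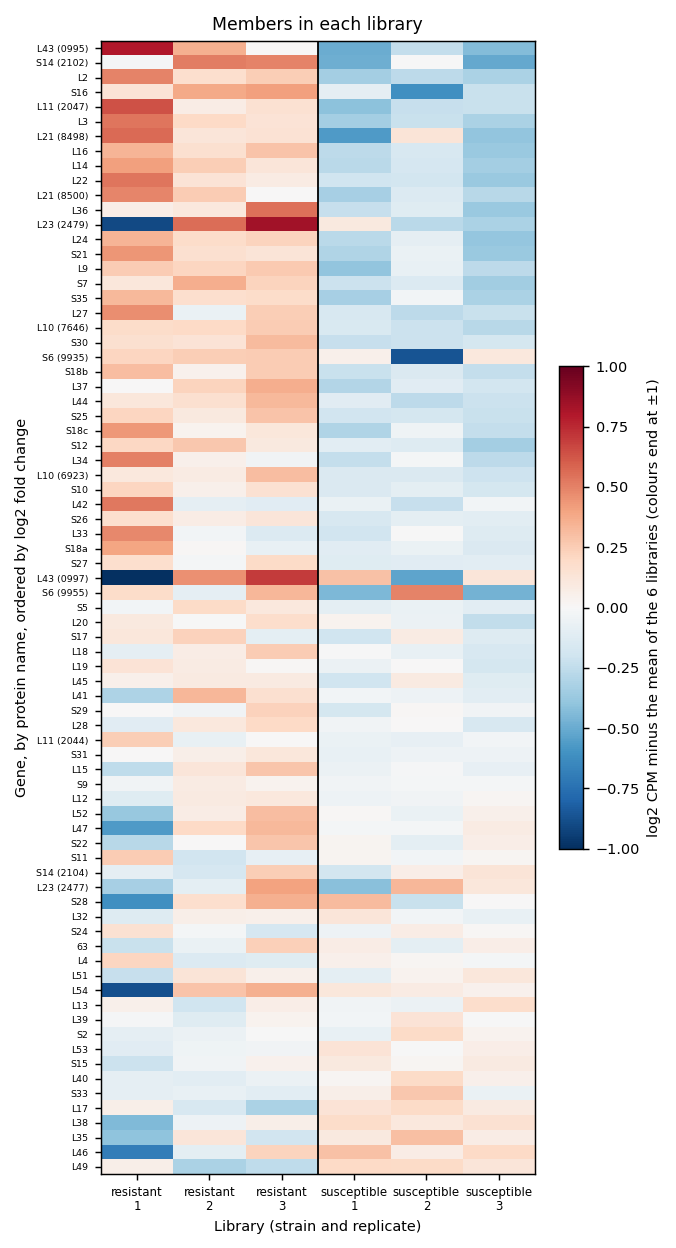
Log2 CPM of each of the 77 genes in each library, minus its mean over the 6 libraries, with genes ordered from the highest to the lowest log2 fold change. The upper rows are red in the resistant and blue in the susceptible libraries; in resistant replicate 1 L54, L46, L47, S28 and 1 gene each of L23 and L43 are blue where the other resistant libraries are red or pale.

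Resistant replicate 1 stood apart from the other resistant libraries. Over all genes the chi-square per degree of freedom was 97.8 and 123 for its pairs with resistant replicates 2 and 3, against 19.3 between those 2 and 6.94 to 8.13 between susceptible libraries. The median deviation of the 77 genes in that library from the mean of resistant replicates 2 and 3 was -0.01 on the log2 scale, where cytosolic ribosomal proteins lay at 0.43 and respiratory chain subunits at 0.25. Single genes ranged from -1.63 to 0.63. In 6 genes that library was more than 1.5 times below the others, namely an L43 gene, an L23 gene, L54, S28, L47 and L46, and in 2 it was as far above, L42 and the other L43 gene. With all libraries none of the first 6 passed the test. Without resistant replicate 1 the L23 gene LOC114122479 was called higher (log2 fold change 0.85, edgeR adjusted p = 7.845e-05), as were the L43 gene LOC114130997 (0.57, edgeR adjusted p = 0.0179) and L47 (0.25, edgeR adjusted p = 0.00994), while L54, S28 and L46 were not called. The coefficient of variation between resistant libraries had a median of 11.9%, and between susceptible libraries one of 6.37%, against 2.79% from counting alone at these depths.

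Among the 70 proteins, 7 are named by 2 genes each, L10, L11, L21, L23, L43, S6 and S14, and 6 of the pairs have only 1 gene under its identifier in the RefSeq table of assembly ASM2018417v2. How reads that match both genes were counted is not known here, so the split between the genes of a pair is uncertain and the sum of the pair is given as well. S6 belongs to the small subunit. LOC114129935 had 15.3, 8.11 and 15.9 CPM in susceptible replicates 1 to 3, and LOC114129955 had 8.10, 15.6 and 7.96 CPM, so the larger gene changed in replicate 2 while the sums were 23.4, 23.7 and 23.9 CPM. In the resistant libraries the sums were 29.7, 27.9 and 31.6 CPM. Neither S6 gene passed on its own (edgeR adjusted p = 0.208 and 0.566), and their sum rose by 0.33 ± 0.10 (edgeR adjusted p = 0.0377).

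The split between the L43 genes also varied between libraries. LOC114130995 held 92.1% of the pair in resistant replicate 1 and 66.4% in resistant replicate 3, with 41.4, 30.4 and 23.8 CPM in the resistant and 16.9, 20.2 and 17.6 CPM in the susceptible libraries, the greatest rise of the 25 (0.81 ± 0.20, edgeR adjusted p = 0.0145). LOC114130997 had 3.58, 10.1 and 12.03 CPM against 9.07, 5.13 and 8.05 CPM, and did not pass. Their sum was 45.0, 40.5 and 35.8 CPM against 25.9, 25.3 and 25.6 CPM and rose by 0.66 ± 0.11 (edgeR adjusted p = 0.00277). For L10 the sum rose by 0.38 ± 0.10 and for L21 by 0.52 ± 0.15. The L21 gene LOC114128500 had 30.9, 26.2 and 22.1 CPM against 17.4, 19.98 and 18.1 CPM and rose by 0.51 ± 0.15, a call lost when resistant replicate 2 or any one susceptible replicate was left out, while LOC114128498, the member with the lowest level per length, lay at 6.26, 4.57 and 4.67 against 2.85, 4.60 and 3.20 CPM and did not pass.

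In other pairs the sum did not pass. The S14 gene LOC114122102 had 11.6, 16.7 and 16.5 CPM in the resistant and 8.34, 11.7 and 8.20 CPM in the susceptible libraries. It is the only riser whose strains overlapped (0.67 ± 0.21, edgeR adjusted p = 0.0347), and its call was lost without resistant replicates 2 or 3 and without susceptible replicates 1 or 3. The S14 gene LOC114122104 was at 14.5, 13.7 and 18.3 CPM against 13.6, 16.2 and 16.9 CPM, and the sum of the pair had a log2 fold change of 0.29 ± 0.14 (edgeR adjusted p = 0.148). The L11 sum had a log2 fold change of 0.31 ± 0.13 (edgeR adjusted p = 0.0868), without overlap. For L23, LOC114122479 had 4.99, 13.7 and 16.7 CPM against 9.96, 7.73 and 7.49 CPM and LOC114122477 had 3.02, 3.56 and 5.02 CPM against 2.85, 4.78 and 4.10 CPM, and the sum lay at 0.35 ± 0.31 (edgeR adjusted p = 0.401). With the pairs summed, 24 of 70 proteins rose (34.3%, beside 21.4% of all features tested that way) and 1 fell (1.43%, beside 14.5%).

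**Figure D4:**
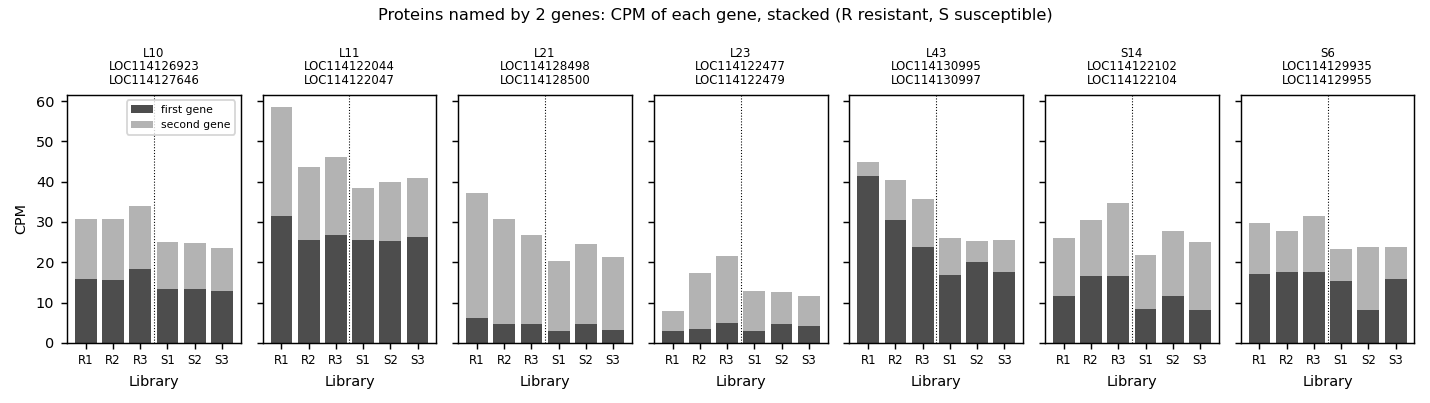
CPM of both genes of each of the 7 proteins named by 2 genes, stacked, in each library (R resistant, S susceptible, 1 to 3 the replicate). In S6 the shades change places in susceptible replicate 2 while the bar keeps its height, and in L43 the dark gene takes 92.1% of the bar in resistant replicate 1.

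Levels of different genes were compared per length, with the FPKM values of the authors. These were taken as deposited, without the TMM scaling used for CPM, and serve to order genes, not to compare strains. L12, for example, had the lower mean FPKM in the resistant strain but the higher mean CPM, 66.4 against 64.2. The 77 genes spanned 4.75 to 104 FPKM (mean of the 6 libraries), with a median of 35.3. Those with single names spanned 9.66 to 77.4 FPKM in the large and 17.0 to 104 FPKM in the small subunit. Cytosolic ribosomal proteins had a median of 1327 FPKM over 69 genes and respiratory chain subunits one of 150 FPKM over 74. The highest member was S33 (LOC114122880), a small mitochondria-specific protein, at 91.8 ± 7.0 FPKM in resistant and 115 ± 13 FPKM in susceptible aphids (SD, n = 3). L38 followed at 66.9 ± 17.1 and 87.9 ± 3.0 FPKM, then L34 (LOC114122295) at 79.2 ± 8.4 and 68.7 ± 5.8, L12 at 71.7 ± 12.5 and 75.5 ± 2.8, S15 (LOC114121059) at 62.6 ± 11.3 and 74.9 ± 2.8 and S21 at 76.3 ± 1.8 and 59.99 ± 6.1 FPKM. From L38 to S15 each differed from the next by less than the larger SD in the resistant strain. In the susceptible strain L12 and S15 were that close, while L38 stood above L34 and S15 above S21 by more than the larger SD. At the low end stood S28 (LOC114120440) in the small subunit, at 17.0 FPKM and with 11.3, 19.4 and 22.1 against 21.4, 14.8 and 17.3 CPM.

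**Figure D5:**
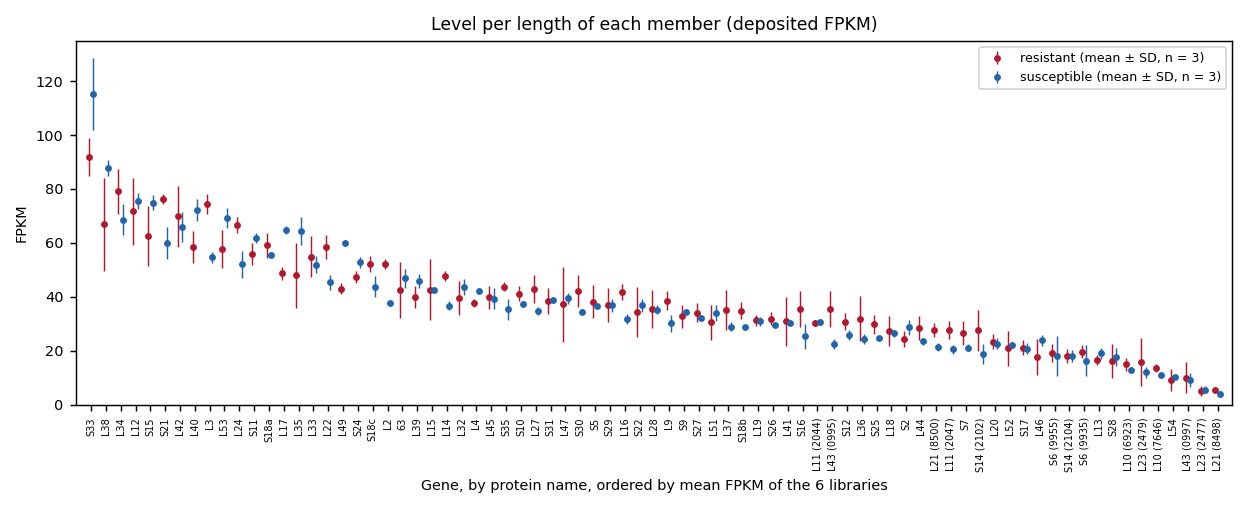
Deposited FPKM of each member in the resistant (red) and susceptible (blue) strain, mean and SD of 3 libraries, ordered by the mean of all 6. S33 is highest at 104 FPKM and an L21 gene lowest at 4.75, and most of the genes to the far right belong to names shared by 2 genes.

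Ribosomal proteins of the cytosol were counted for comparison. Shares are read against 14.4% lower and 21.4% higher among all tested genes. Of 69 cytosolic ribosomal proteins 16 fell (23.2%) and 4 rose (5.80%), with a median of -0.27. Of 60 tested ribosome biogenesis genes, which build the cytosolic ribosome, 7 fell (11.7%) and 1 rose (1.67%), with a median of -0.02. The share of biogenesis genes that fell was thus below that of all genes. Of 68 tested respiratory chain subunits, the complexes that mitochondrial ribosomes serve, 28 rose (41.2%) and 1 fell (1.47%), with a median of 0.26. With library totals alone the calls were 50 lower and 4 higher for cytosolic ribosomal proteins and 17 higher and 1 lower for respiratory chain subunits. That fit called 20.8% of all genes lower and 15.8% higher. Without resistant replicate 1 edgeR called 59 of the cytosolic ribosomal proteins lower and 4 higher (median -0.44). It then called 14 of the biogenesis genes lower and 10 higher, and 41 of the respiratory chain subunits higher and 1 lower. Of all genes 24.9% were lower and 28.6% higher without that library. The difference between the lists was not tested. In summed CPM the cytosolic ribosomal proteins of resistant replicate 1 stood at 79400, within the susceptible range of 76510 to 80040, and resistant replicates 2 and 3 at 57970 and 61170.

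Among 20 factors of mitochondrial translation and ribosome assembly 5 rose and 2 fell (median 0.07), or 25% and 10%, which is near the 21.4% and 14.4% of all tested genes. Scaled to library totals alone, 1 rose and 3 fell (median -0.06), in a fit that called 15.8% of all genes higher and 20.8% lower. The 20 include genes described as mitochondrial transcription termination factors, none of which was called with TMM scaling. Elongation factor Tu (LOC114130225), which delivers aminoacyl-tRNA, had 313, 272 and 246 CPM in the resistant and 166, 175 and 168 CPM in the susceptible libraries and rose by 0.71 ± 0.10 (edgeR adjusted p = 0.00126). Elongation factor G (LOC114126824), which moves the ribosome along, rose by 0.42 ± 0.09, and elongation factor Ts (LOC114122718), which recharges Tu, by 0.38 ± 0.10. The large-subunit assembly factor LOC114128255 rose by 0.51 ± 0.15 and rRNA methyltransferase 3 (LOC114130317) by 0.46 ± 0.11. The GTPase Era (LOC114131438), an assembly factor of the small subunit, had 19.0, 24.3 and 24.0 CPM against 29.4, 31.8 and 28.7 CPM and fell by 0.42 on the log2 scale (SE 0.13), and peptide deformylase (LOC114132730) fell by 0.38 (SE 0.12).

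Other steps of mitochondrial gene expression and upkeep are read against 21.4% higher and 14.4% lower among all tested genes. Of 17 mitochondrial tRNA synthetases 0 rose and 1 fell in edgeR's test (median -0.14), the leucine enzyme LOC114123984, by 0.62 on the log2 scale (SE 0.12). At an unadjusted p under 0.05 in that test 0 were higher and 4 lower, a threshold at which all genes were not counted. DESeq2 called 2 lower and limma-voom 1, beside 18.6% and 15.8% of all genes, with 0 higher in both. Without resistant replicate 1 edgeR called 2 higher and 3 lower, beside 28.6% and 24.9% of all genes. Of 14 genes of mitochondrial transcription, replication and RNA handling 2 rose and 2 fell. Without resistant replicate 1 the counts were 7 and 2, in the fit that called 28.6% of all genes higher and 24.9% lower. The mitochondrial RNA polymerase (LOC114128360) fell by 0.37 (SE 0.10) and the helicase twinkle (LOC114121463) by 0.63 (SE 0.19), while polyribonucleotide nucleotidyltransferase 1 (LOC114126269) rose by 0.39 ± 0.11. The list of protein import genes also holds subunits of the MICOS complex, none of which was called. Of its 27 tested genes 6 rose and 4 fell, shares of 22.2% and 14.8% that are near those of all genes. Among them were the Tim16-like LOC114125672, part of the import motor, at 30.03, 18.6 and 18.04 CPM against 6.12, 5.62 and 4.85 CPM (log2 fold change 2.0 ± 0.23), and a component 50 of the sorting and assembly machinery, LOC114132787, lower by 0.93 (SE 0.17). Of 12 genes listed as mitochondrial chaperones and proteases 6 rose (median 0.23). With library totals alone 0 rose, where 15.8% of all genes did. The largest rise was that of the protease AFG3-like protein 2 (LOC114123696, 0.52 ± 0.10). By its description a listed gene that was not called, lon protease homolog 2 (LOC114122432), is peroxisomal. Of 24 respiratory chain assembly factors 6 rose, or 25%. Of these COX20 (LOC114120099) had the largest change among genes of at least 5 CPM (0.92 ± 0.14).

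In whole bodies fewer cells of a type and less RNA per cell cannot be told apart. Markers of gut, bacteriocytes and cuticle were called higher at shares above that of all tested genes. Over all tested genes the shares were 21.4% higher and 14.4% lower. Of 36 tested gut markers 29 rose (80.6%) and 0 fell. The listed gut markers summed to 13190 to 16700 CPM in the resistant and 5338 to 5600 in the susceptible libraries. Among the 41 listed, 2 cathepsin B-like genes had no count. All 6 bacteriocyte and symbiosis markers rose, with sums of 1962 to 2780 against 1090 to 1099 CPM. They were picked by product text naming cystathionine gamma-lyase, glutamine synthetase, an i-type lysozyme, apolipoprotein D or bacteriocytes. Whether these genes are limited to bacteriocytes was not tested. Of 49 cuticle and epidermis markers 28 rose (57.1%) and 3 fell (6.12%), with sums of 17160 to 30370 against 12840 to 13310 CPM. Muscle markers, 5 higher (23.8%, near the share of all genes) and 6 lower (28.6%) of 21, summed to 14670 to 16680 against 13570 to 14450 CPM. Embryo and germline markers, 7 higher (8.43%) and 10 lower (12.05%) of 83, summed to 4001 to 5524 against 3830 to 3928 CPM. Nervous system markers, 3 higher (17.65%) and 4 lower (23.5%) of 17, summed to 782.5 to 800.3 against 791.4 to 807.3 CPM. The lower ones include a gene described as syntaxin-10 (LOC114132171), which the text pattern for syntaxin-1 also matched. That list is therefore not limited to the genes intended. The part of tissue make-up in the mitochondrial ribosomal protein values was not tested.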

How the data were processed

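RNA of pooled whole bodies was sequenced as paired-end reads in 6 libraries. The submitters' processing notes list fastp 0.22.0 and HISAT2. For the counter, strand setting, annotation and build, nothing is given in the sources used here. The authors deposited raw read counts per gene and library and FPKM values, per the file headers. The deposited FPKM values were used for levels per length only and were not tested.

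Counts were fitted for all genes in R 4.3.3 with edgeR 4.0.16 (TMM, filterByExpr with a minimum count of 10 and total of 15, glmQLFit with robust = TRUE, strain as the only term, a call at a Benjamini-Hochberg adjusted p under 0.05), which left 11149 genes. SE was taken as |log2 fold change| over the root of the F statistic. CPM values use TMM-scaled totals. Alternatives were DESeq2 1.42.0, limma 3.58.1 voom, other scalings, other filters, the replicate number as a block, each library left out, a narrower text rule and, chosen after seeing the data, genes of 1 protein summed. Chi-square per degree of freedom between replicates was 6.94 to 123, above counting noise, so no 2 libraries were counted as 1 sample; the highest values involve resistant replicate 1.

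Members and lists were chosen by text with earlier results of these data known. Named were the 12 largest called changes per direction, in each subunit the 3 highest, the lowest and the extreme fold changes, L2, L3, L4, L11, L12, L44, S12, S22, S29 and S35, every gene sharing a name, and per pathway list the largest called change in each direction with at least 5 CPM; other genes were named after their values were seen. Of 75 LOC identifiers 69 matched RefSeq's table of assembly ASM2018417v2, used for names and neighbours only. Tables and figures used Python 3.11.15, pandas 2.3.3 and matplotlib 3.10.9.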

Additional observations from a re-analysis of the deposited data

How the results depend on the processing

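The 25 members called higher became 7 with library totals alone and 16 with the replicate number as a block, and between 5 and 37 with a library left out; the 1 called lower became 3, 0, and between 0 and 2. All 16 under the block were among the 25, and they are 20.8% of members beside 18.9% of all genes in that fit. The median log2 fold change was 0.04 with library totals and 0.14 to 0.22 with a library left out, and it kept its sign in all fits. DESeq2's size factors, the DESeq2 test, limma-voom, both other filters, the narrower text rule and summed pairs kept both counts within 1.5 times. Same-numbered libraries deviated from their strain means with correlations of -0.0299 to -0.0114. These values gave no sign of pairing by number, but 3 libraries per strain are too few to settle whether the numbers pair samples. Of 36 members named by rule, the 18 called ones kept their direction throughout, while 10 lost their call with library totals, 6 under the block, 12, 9 and 14 without susceptible replicates 1, 2 and 3, and 8 and 4 without resistant replicates 2 and 3. Some members that were not called changed sign. With library totals alone L11 (LOC114122044) was at -0.03, L12 at -0.09, S22 at -0.12 and S29 at -0.0083, and with limma-voom L23 (LOC114122477) was at 0.0082. With a library left out L23 (LOC114122477) ranged from -0.24 to 0.16, L4 from -0.15 to 0.03, L43 (LOC114130997) from -0.1 to 0.57, S14 (LOC114122104) from -0.14 to 0.07, S22 from -0.13 to 0.14 and S28 from -0.21 to 0.22; the cause was not tested. Counting error was 2.79% of a member's level at the median, and 8.45% for L23 (LOC114122477) and 8.05% for L21 (LOC114128498).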
